A study of Mus musculus with 10 samples.

Results

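The aryl hydrocarbon receptor pathway is described here by 7 genes, chosen by symbol from the 27179 genes of the deposited count table: the receptor Ahr, its nuclear partner Arnt, its repressor Ahrr, and the classic target genes Tiparp, Cyp1a1, Cyp1b1 and Nqo1. All 7 were found, and 6 passed the filter on low counts. Cyp1b1 did not and is given by its counts. The cells were regulatory T (Treg) cells, CD4 T cells that restrain immune responses and depend on the transcription factor Foxp3, sorted from C57BL/6 mice by their T cell receptor beta chain, CD4 and a YFP reporter. Mice of both genotypes carried Foxp3Cre-YFP, in which Foxp3-expressing cells make Cre and YFP. Those called WT carried no further allele in the labels, and those called Maf-KO also carried Maffl/fl, so that Cre deletes the transcription factor gene Maf in Foxp3-expressing cells. Libraries came from gut (colon and small intestine together) and spleen: 2 of WT gut, 2 of Maf-KO gut, 3 of WT spleen and 3 of Maf-KO spleen. The labels give neither age nor sex, nor whether replicates were separate animals, so p-values measure only the spread between these samples.

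Ahr is a ligand-activated transcription factor of the bHLH-PAS family. Without ligand it is held in the cytosol by a chaperone complex with Hsp90 and p23. Ligands, among them dietary indoles, bacterial and host tryptophan products and dioxins, release it to the nucleus, where it pairs with Arnt and binds DNA at xenobiotic response elements with the core GCGTG. Its targets include enzymes that clear ligands (Cyp1a1, Cyp1b1) and negative regulators: Ahrr competes for Arnt and response elements, and Tiparp, a mono-ADP-ribosyltransferase, modifies the receptor. The gut is rich in such ligands, and Ahr is known for roles in intestinal lymphocytes, Treg cells among them.

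The promoters of 4 target genes are shown because 2 of them, Ahrr and Tiparp, had much more RNA in gut than in spleen Treg cells, while Cyp1a1 did not differ detectably and Cyp1b1 gave few counts. Each sequence is the 250 bases before the start used in the RefSeq promoter table (GRCm38.p6), written along the gene's own strand. GCGTG on either strand is in capitals (CACGC where it lies on the other strand). For Cyp1a1 that start lies inside the RefSeq gene span (57687928 to 57703824). The Arnt window, not shown, ends at 95434389, past the first base of its gene span (95434367).
Ahrr, chr13:74292332-74292581 (minus strand): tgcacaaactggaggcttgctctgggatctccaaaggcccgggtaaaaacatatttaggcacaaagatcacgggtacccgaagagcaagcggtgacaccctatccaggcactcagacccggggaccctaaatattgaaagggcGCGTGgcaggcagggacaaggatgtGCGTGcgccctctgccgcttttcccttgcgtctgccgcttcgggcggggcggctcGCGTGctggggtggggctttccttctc
Tiparp, chr3:65528197-65528446 (plus strand): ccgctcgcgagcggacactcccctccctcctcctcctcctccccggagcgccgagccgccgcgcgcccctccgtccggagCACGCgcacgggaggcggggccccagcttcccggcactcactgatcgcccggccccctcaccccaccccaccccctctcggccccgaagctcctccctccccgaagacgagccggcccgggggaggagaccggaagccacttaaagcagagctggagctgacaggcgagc
Cyp1a1, chr9:57697363-57697612 (plus strand): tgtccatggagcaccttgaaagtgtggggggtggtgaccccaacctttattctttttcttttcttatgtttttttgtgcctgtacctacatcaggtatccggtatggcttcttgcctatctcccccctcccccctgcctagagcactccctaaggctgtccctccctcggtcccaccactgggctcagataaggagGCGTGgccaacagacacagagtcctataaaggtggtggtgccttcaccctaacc
Cyp1b1, chr17:79715062-79715311 (minus strand): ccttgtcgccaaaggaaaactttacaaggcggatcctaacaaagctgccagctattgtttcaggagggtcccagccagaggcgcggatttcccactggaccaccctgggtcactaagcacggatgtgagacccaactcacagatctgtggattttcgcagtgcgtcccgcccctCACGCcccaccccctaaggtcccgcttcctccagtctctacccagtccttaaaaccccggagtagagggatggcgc
The RefSeq promoter table held 6 of the 7 genes, with no entry for Ahr. Ahrr had 3 copies of GCGTG, at 107, 82 and 27 bases before the start, the last of which also fits the longer form TNGCGTG. Over all 32851 promoters of the table, 28.2% held GCGTG at least 1 time, 2.77% held it 3 or more times and 4.1% held TNGCGTG. Tiparp had 1 copy at 170 bases, Cyp1a1 1 at 54 bases, Cyp1b1 1 at 76 bases and Arnt 1 at 29 bases, and Nqo1 had 0 in this window. These are matches of letters, and binding was not measured. GCGTG can also be read as a form of the site bound by Arnt with hypoxia-inducible factors.

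Libraries held 8567035 to 13983965 counts, and replicates of a group differed by more than counting (chi-square per degree of freedom 13.9 to 32.6 over genes). Maf had 859 and 918 counts in WT gut, 312 to 484 in WT spleen and 2 to 10 in the Maf-KO libraries, as their labels say. All 7 Treg markers (Foxp3, Il2ra, Ctla4, Ikzf2, Cd4, Cd3e, Trac) exceeded 1 CPM, read counts scaled to library size, in every library. Markers of other cells moved with tissue, in both directions. Plasma cell genes summed to 1130 to 6410 CPM in gut and 52.7 to 125 CPM in spleen, most of it Jchain (means of 4170 and 2230 CPM in WT and Maf-KO gut). The 8 epithelial genes summed to 141 to 176 CPM in gut and 35.3 to 70.7 CPM in spleen, most of it Epcam. Of these, Krt8, Krt20 and Phgr1 were at 0 in spleen of both genotypes. Epcam, Krt8, Krt20, Cdh1, Fabp1 and Phgr1 had higher means in gut in both genotypes, but Vil1 and Lgals4 took both directions. Vil1 was lower in WT gut than in WT spleen (0.189 and 0.51 CPM). Lgals4 was lower in Maf-KO gut than in Maf-KO spleen (2.34 and 3.24 CPM). The 7 CD8, NK and innate lymphoid genes summed to 2630 to 4530 CPM in gut and 41.9 to 105 CPM in spleen, but the gut sum was nearly all Gzma (means of 2740 CPM in WT and 4320 CPM in Maf-KO). Of the other 6 genes, Klrb1b had a higher mean in gut and 5 had lower means there in both genotypes. In WT gut against WT spleen these were 6.66 and 14 CPM for Cd8a, 10.2 and 34.7 for Cd8b1, 0.736 and 2.71 for Ncr1, 0.732 and 3.95 for Klrd1, and 1.44 and 4.24 for Eomes. B cell genes summed to 14 to 35 CPM in gut and 68.5 to 247 CPM in spleen, and stromal and endothelial genes to 45.3 to 76.4 and 115 to 192 CPM. The latter sum was mostly Pecam1 (means of 52.7 CPM in WT gut and 164 CPM in WT spleen), and Cdh5 and Vwf also had lower means in gut. Col1a1, Col1a2, Col3a1, Pdgfra and Pdgfrb had higher means in gut in both genotypes. For Col3a1 these were 5.34 CPM in WT gut and 0.0593 CPM in WT spleen. Myeloid genes, at 78.8 to 238 against 111 to 564 CPM, overlapped between tissues. Pancreatic acinar genes reached 17.3 to 94.8 CPM in WT gut alone, against 1.31 to 6.94 CPM in the other groups. Their part in the differences between tissues below was not tested. In such bulk samples, fewer cells of a type and less RNA per cell cannot be told apart.

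Ahr itself was about as high in Maf-KO as in WT Treg cells and several times higher in gut than in spleen. Its level was 289 and 343 CPM in WT gut, 324 and 282 CPM in Maf-KO gut, and in spleen 70.0, 77.3 and 90.4 CPM (WT) and 82.5, 96.8 and 86.3 CPM (Maf-KO). Every gut library lay above every spleen library, and the genotypes overlapped within each tissue. The gut mean was 316 ± 37.9 CPM (SD, n = 2) in WT and 303 ± 30 CPM (SD, n = 2) in Maf-KO, against spleen means of 79.2 ± 10.3 and 88.5 ± 7.4 CPM (SD, n = 3). In edgeR's test the gut level was 3.99-fold higher in WT (log2 1.99, SE 0.138, adjusted p = 8.27e-06) and 3.43-fold higher in Maf-KO (log2 1.78, SE 0.138, adjusted p = 1.83e-05). The 5′ end of Ahr (chromosome 12, 35497979 to 35534989, GRCm38) overlaps the antisense lincRNA Gm48236 in the annotation, and without a stated strand setting reads from there cannot be told apart.

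Arnt (chromosome 3, 95434367 to 95497240), the partner of Ahr and also of the hypoxia-inducible factors, differed little. WT gut libraries had 108 and 120 CPM and Maf-KO gut libraries 122 and 119 CPM. WT spleen libraries had 88.5, 108 and 98.9 CPM and Maf-KO spleen libraries 109, 112 and 110 CPM. Both gut groups lay just above the spleen group of their genotype, but the difference did not pass edgeR's test in WT (log2 0.21, SE 0.106, adjusted p = 0.163) or Maf-KO (log2 0.12, SE 0.105, adjusted p = 0.439). With the title number as a block, the WT difference was 0.29 and passed (edgeR, adjusted p = 0.0356). Its sign depended on scaling, since library totals without TMM factors gave -0.05 (WT) and -0.14 (Maf-KO), while the deposited log2 values gave -0.03 and -0.13. The median of all genes moved by -0.269 in WT and -0.258 in Maf-KO under those totals.

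Ahrr, whose product limits Ahr signalling, was abundant in gut libraries and close to 0 in spleen libraries of both genotypes. WT gut libraries had 336 and 364 counts (42.2 and 43.1 CPM) and Maf-KO gut libraries 693 and 378 counts (60.3 and 30.2 CPM). Spleen libraries held 2, 4 and 1 counts (WT) and 3, 5 and 6 counts (Maf-KO), at or near the floor of 3 counts. The separation of the tissues was complete, while the WT gut pair lay between the Maf-KO gut libraries. Summed over libraries, the level in WT gut was 212 times that in WT spleen (95% counting interval 102 to 529), and in Maf-KO the ratio was 91 (54 to 167). The edgeR differences were 7.65 on the log2 scale in WT (SE 0.414, adjusted p = 1.91e-06) and 6.49 in Maf-KO (SE 0.379, adjusted p = 3.38e-06). The gene lies on chromosome 13, 74211118 to 74292331.

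Tiparp followed the same order. It had 226 and 290 CPM in WT gut and 276 and 192 CPM in Maf-KO gut. The spleen levels were 35.6, 37.6 and 50.7 CPM (WT) and 35.5, 45.8 and 39.0 CPM (Maf-KO). Again gut and spleen did not overlap, and the genotypes did. The gut level was 6.25-fold higher in WT (log2 2.64, SE 0.205, edgeR adjusted p = 1.68e-05) and 5.83-fold higher in Maf-KO (log2 2.54, SE 0.205, adjusted p = 2.31e-05). Tiparp lies on chromosome 3, 65528447 to 65555518, and its 5′ end overlaps a pseudogene on the opposite strand, 4931440P22Rik.

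**Figure D1:**
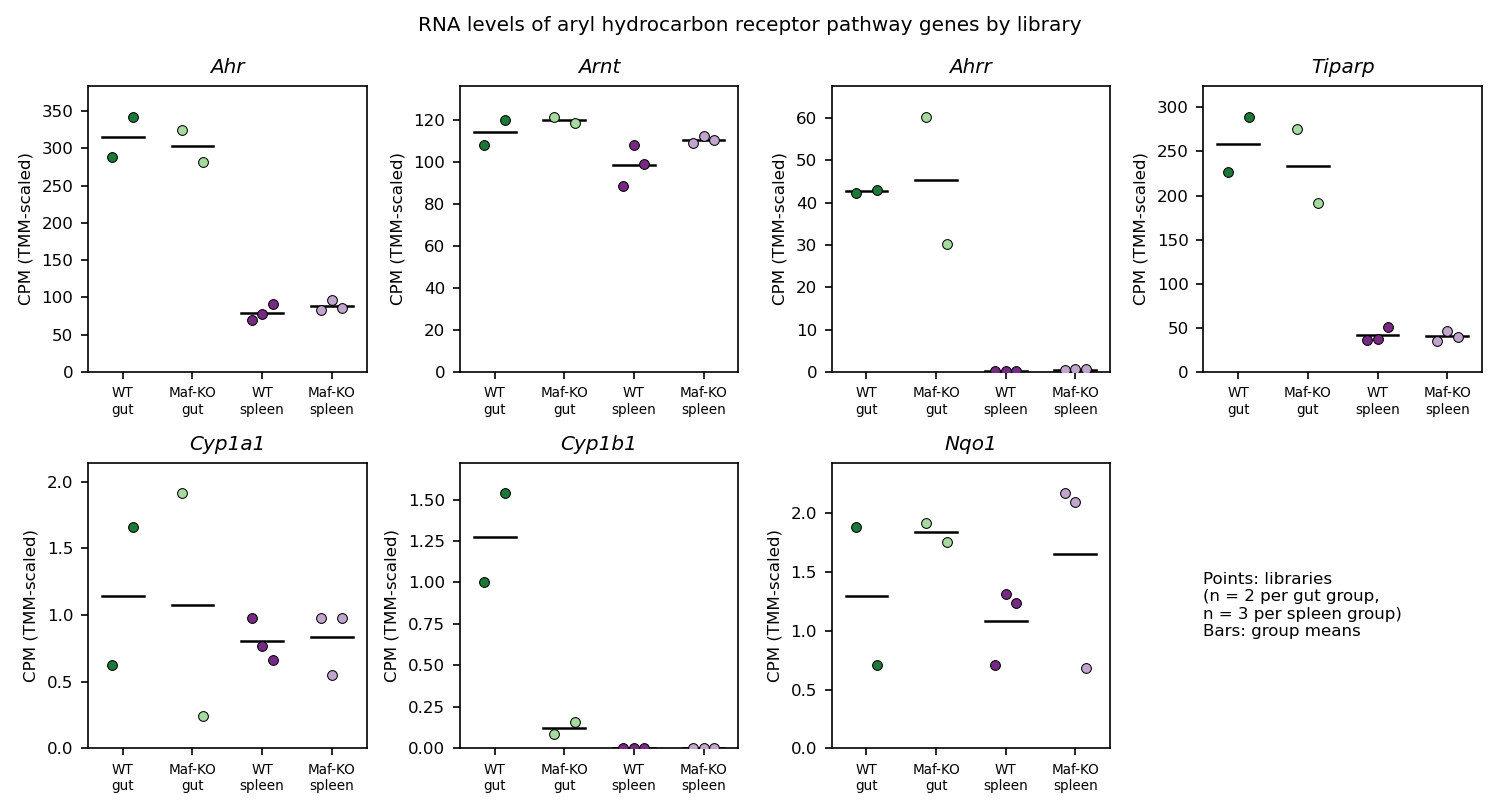
Level of each of the 7 genes in every library, in TMM-scaled CPM (vertical axes start at 0 and differ between genes), with points for libraries and bars for group means. Gut libraries of Ahr, Ahrr and Tiparp sit above all spleen libraries in both genotypes, whereas Cyp1a1 and Nqo1 overlap and stay near 2 CPM or below.

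The remaining targets, 2 cytochrome P450 enzymes and a quinone reductase, were scarce. Cyp1a1, the target most used as a readout of Ahr activity, had 5 and 14 counts in WT gut and 22 and 3 in Maf-KO gut. Spleen libraries held 11, 10 and 7 counts (WT) and 9, 5 and 10 counts (Maf-KO). Highest and lowest values both came from Maf-KO gut, and all groups overlapped. The summed ratio of gut to spleen was 1.44 in WT (95% counting interval 0.759 to 2.67) and 1.24 in Maf-KO (0.679 to 2.26), intervals that cover counting error only. By edgeR the log2 difference was 0.51 (SE 0.757, adjusted p = 0.66) in WT and 0.34 (SE 0.745, adjusted p = 0.773) in Maf-KO. The sign in Maf-KO turned to -1.75 without Maf-KO gut replicate 2, and that in WT to -0.35 without WT gut replicate 3.

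Nqo1, which reduces quinones and is a target of Nrf2 as well as Ahr, had 15 and 6 counts in WT gut and 22 and 22 in Maf-KO gut. Spleen libraries held 8, 17 and 13 counts (WT) and 20, 19 and 7 counts (Maf-KO). Its groups overlapped. The ratio of gut to spleen was 1.17 in WT (95% counting interval 0.653 to 2.05) and 1.14 in Maf-KO (0.735 to 1.76). The edgeR differences of 0.24 (SE 0.604, adjusted p = 0.796) and 0.16 (SE 0.559, adjusted p = 0.863) did not pass, and both were negative without TMM factors, at -0.01 and -0.09.

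Cyp1b1, the other ligand-clearing P450 of the set, had 8 and 13 counts in WT gut, 1 and 2 in Maf-KO gut and 0 in all 6 spleen libraries. WT gut libraries thus stood above all others. Against a floor of 3 counts over the group, its level was at least 14.8-fold higher in WT gut than in WT spleen. WT gut held 10.2 times the level of Maf-KO gut by summed counts (95% counting interval 3.06 to 53.6). With all 20124 genes that had any count kept in the edgeR test, the tissue difference in WT passed (adjusted p = 0.0034). The genotype difference in gut did not (adjusted p = 0.546). Pancreatic acinar markers, as given above, were also highest in WT gut, and their part in this result was not tested.

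Per transcript length, on the authors' deposited FPKM scale, Tiparp (mean 58.4 FPKM in WT gut) and Ahr (54.1) were the most abundant of the 6 genes listed there, followed by Arnt (24.6), Ahrr (8.51), Nqo1 (0.814) and Cyp1a1 (0.392). In WT spleen the means were 25.1 FPKM for Arnt, 16.1 for Ahr, 11.1 for Tiparp, 0.792 for Nqo1, 0.332 for Cyp1a1 and 0.0508 for Ahrr. Arnt thus ranked below Ahr in gut and above it in spleen. Between the WT gut libraries the SDs were 8.16 FPKM for Tiparp, 4.69 for Ahr, 0.532 for Nqo1 and 0.233 for Cyp1a1 (n = 2). Tiparp lay above Ahr in both libraries (52.67 against 50.81 and 64.21 against 57.44 FPKM). Nqo1 lay above Cyp1a1 in WT gut replicate 1 (1.19 against 0.2268 FPKM) and below it in replicate 3 (0.4376 against 0.5567 FPKM). Differences between genes were not tested.

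Of the 6 tested genes, 3 were higher in gut than in spleen in WT and the same 3, Ahr, Ahrr and Tiparp, in Maf-KO, by edgeR at an adjusted p under 0.05. Among all genes tested, 28.0% were called in WT (14.7% as higher) and 28.6% in Maf-KO (14.4% as higher). Without TMM factors the share of calls that were higher was 25.2% instead of 52.4% (WT) and 25.1% instead of 50.5% (Maf-KO). The 3 genes stayed called. Gut libraries lay above all spleen libraries for 4 of the 6 genes in each genotype, the 3 and Arnt, against 25.9% of all tested genes in WT and 27.5% in Maf-KO. The members' median log2 difference was 1.25 in WT and 1.06 in Maf-KO, beside -0.03 and -0.02 over all genes tested.

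**Figure D2:**
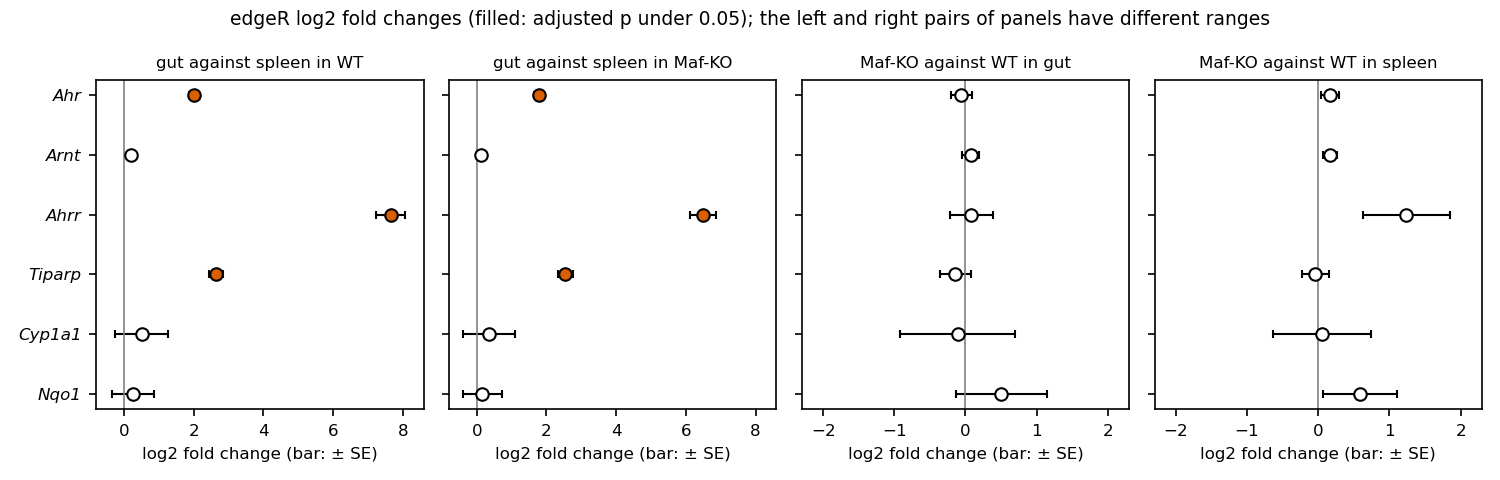
edgeR log2 fold changes (horizontal axes, bars ± SE) of the 6 tested genes in 4 comparisons, filled where the adjusted p was under 0.05, with wider axes for the tissue panels. The only filled points are those of Ahr, Ahrr and Tiparp in the gut against spleen panels, from 1.78 to 7.65.

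The tissue difference was also seen within each pair of libraries that share a title number. Gut minus spleen for Ahr was 2.04 and 1.92 in the 2 WT pairs and 1.74 and 1.71 in the 2 Maf-KO pairs, on the log2 CPM scale. For Ahrr it was 6.84, 7.23, 6.35 and 5.29, and for Tiparp 2.66, 2.51, 2.58 and 2.29, in the same order. Arnt was higher in gut in all 4 pairs, by only 0.291, 0.278, 0.116 and 0.104. Cyp1a1 and Nqo1 took both signs.

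**Figure D3:**
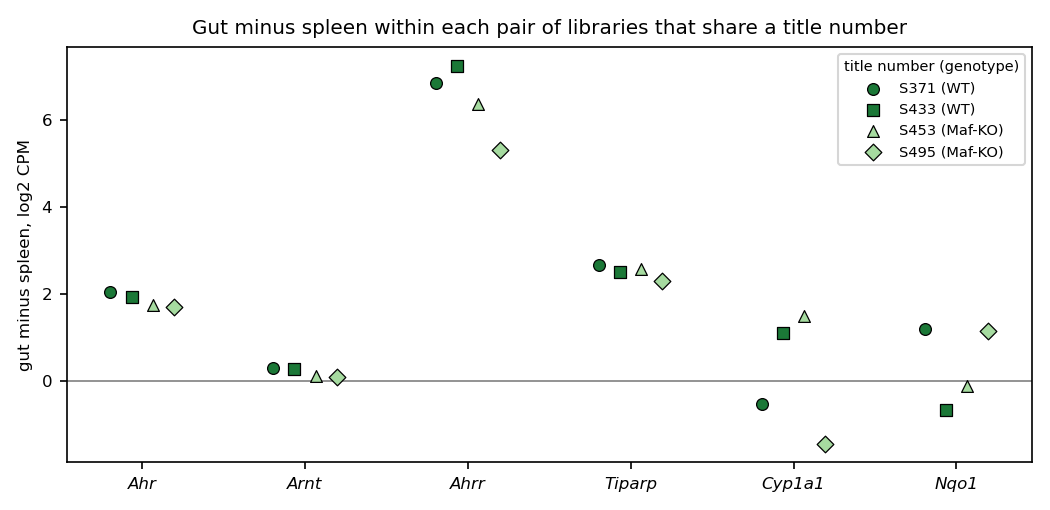
Gut minus spleen (vertical axis, log2 CPM with a prior count of 2) within the 4 pairs of libraries that share a title number, for the 6 tested genes. All pairs of Ahr, Arnt, Ahrr and Tiparp lie above 0, those of Ahrr at 5.29 to 7.23, and Cyp1a1 and Nqo1 scatter around 0.

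No difference between Maf-KO and WT passed the test for any of the 6 genes. In gut, 0 of 6 were called, where edgeR called 20 of 13214 genes, or 0.151%. The log2 differences, Maf-KO against WT, were -0.06 for Ahr (SE 0.151), 0.07 for Arnt (SE 0.116), 0.08 for Ahrr (SE 0.303), -0.14 for Tiparp (SE 0.22), -0.11 for Cyp1a1 (SE 0.81) and 0.50 for Nqo1 (SE 0.637), with adjusted p from 0.904 to 0.986. The libraries of the 2 genotypes overlapped for all 6. They did not for 36.2% of all genes tested, but with 2 libraries against 2 such separation is frequent without any genotype effect. The large errors of Cyp1a1 and Nqo1 leave changes of several-fold undetectable.

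In spleen, 0 of 6 were called, with 2 of 13214 genes, or 0.0151%, called in all. Maf-KO libraries lay above WT libraries for 2 of the 6, Arnt and Ahrr, against 7.51% of all genes tested in either direction. Arnt differed by 0.17 (SE 0.0949, edgeR adjusted p = 0.999). Ahrr differed by 1.24 (SE 0.609, adjusted p = 0.999), on 7 counts in all WT spleen libraries and 14 in all Maf-KO ones. The other differences were 0.16 for Ahr, -0.04 for Tiparp, 0.06 for Cyp1a1 and 0.59 for Nqo1. The genotype effects of the 2 tissues did not differ by the interaction test for any of the 6 (adjusted p = 0.9999 for each), and 0% of all genes were called there by edgeR, with 422 at an unadjusted p under 0.05 and 8 called by DESeq2.

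Genes with the pattern most like Ahr over the 10 libraries, among 9554 genes with a mean of at least 5 CPM, were Tiparp (Pearson r of log2 CPM 0.9956), Ric1 (0.9952), Tgoln1 (0.994), Zbtb25 (0.9936) and Tmem123 (0.9929). Those most like Ahrr were Actn2 (0.9972), Rgs9 (0.9931), the chemokine receptor gene Cxcr6 (0.9931), Herpud1 (0.993) and Gla (0.9926). The libraries fall into a gut and a spleen cluster, so these values describe the shared step between tissues. A member of the pathway, Tiparp, came first for Ahr among the 9554 genes compared. Predicted genes, Rik-named genes, entries without a symbol, and immunoglobulin and T cell receptor segments had been left out.

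Other genes of the pathway were read from 8 lists with 84 different genes, of which 66 were tested. In WT 19 were higher and 6 lower in gut (37.9% called, against 28.0% of all genes tested) and in Maf-KO 18 were higher and 8 lower (39.4%, against 28.6%). The same shares over all genes are the background of each single list. Between genotypes 1 gene was called in gut, Il10, and 0 in spleen, where edgeR had 376 of all genes at an unadjusted p under 0.05 and DESeq2 called 18.

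Genes linked to Ahr in lymphocytes held most of the higher calls: 11 of 13 were higher in gut in WT (median log2 difference 2.9) and 10 of 13 in Maf-KO (median 3.04). Il10, which encodes an anti-inflammatory cytokine, had 617 and 556 CPM in WT gut and 3.70 to 7.65 CPM in WT spleen, a log2 difference of 6.61 (SE 0.261, edgeR adjusted p = 2.55e-07). In Maf-KO gut it had 98.4 and 128 CPM, lower than in WT gut by edgeR (log2 -2.37, SE 0.247, adjusted p = 0.0064), a call lost without Maf-KO gut replicate 2 (-2.20, adjusted p = 0.107) or replicate 3 (-2.58, adjusted p = 0.0587). Kit, the stem cell factor receptor, was higher in gut by 4.45 (SE 0.296) in WT and 4.07 (SE 0.293) in Maf-KO. The Ikaros-family gene Ikzf3 was higher by 1.31 (SE 0.116) in WT. Il22, a cytokine gene under Ahr control in innate and helper lymphocytes, had 160 and 296 counts in Maf-KO gut and 0 in Maf-KO spleen. Its level was at least 181-fold higher in Maf-KO gut against 3 counts over the group. The same step was seen in WT, with 186 counts over the gut group and 1 over the spleen group (ratio 394, 95% counting interval 69.9 to 15600). Il22 and Kit are also expressed by innate lymphoid cells, which a sort on CD4, T cell receptor beta and YFP is meant to exclude. Of the markers given above, Ncr1 and Klrd1 were under 1 CPM in every gut library and lower than in spleen on average. Klrb1b went the other way, with means of 1.33 CPM in WT gut and 0.358 CPM in WT spleen. In Maf-KO its means were 1.18 and 0.178 CPM. Whether such cells contributed to Il22 or Kit was not tested.

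Among the relatives of Ahr with a bHLH-PAS domain, 3 of 8 tested were higher in gut in each genotype, and 1, Npas4, was lower in Maf-KO, on 1 count in each Maf-KO gut library, a call lost without Maf-KO gut replicate 3 (adjusted p = 0.0517). Epas1, encoding HIF-2alpha, rose most, by 4.58 in WT (SE 0.44, edgeR adjusted p = 6.12e-05) and 3.97 in Maf-KO (SE 0.432). Hif1a was higher by 1.24 (SE 0.195) and 1.31 (SE 0.195). The clock gene Arntl was higher by 0.85 and 0.82, calls lost without WT gut replicate 3 (0.69, adjusted p = 0.0775) and without Maf-KO gut replicate 2 (0.53, adjusted p = 0.129). Both HIF proteins pair with Arnt, as Ahr does, and Arnt itself moved far less.

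The receptor complex list had 1 of 4 genes called in WT and 0 in Maf-KO. Hsp90aa1, a cytosolic chaperone gene, was higher in gut by 2.12 in WT (SE 0.509, edgeR adjusted p = 0.0117) and by 1.41 without WT gut replicate 3 (adjusted p = 0.109). In the list of tryptophan and ligand metabolism, Slc3a2, encoding a subunit of amino acid transporters, was higher in gut by 2.49 (SE 0.112) and 2.60 (SE 0.112). The transporter gene Slc7a5, also listed, was not called. It had means of 46.7 CPM in WT gut and 51.1 CPM in WT spleen, and 63.4 and 53.6 CPM in Maf-KO. Haao, an enzyme of the kynurenine route, was lower in WT gut (log2 -2.60, SE 0.598), which did not pass without WT gut replicate 3 (-2.25, adjusted p = 0.0717). The other calls there were Haao and Ddc, both lower in Maf-KO gut than in Maf-KO spleen, and both were lost when single libraries were left out (adjusted p up to 0.169 and 0.0877).

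The Nrf2 list, which shares Nqo1 as a target, had 1 gene higher and 2 lower of 11 in WT, and 2 higher and 3 lower in Maf-KO. Each of the 5 Maf-KO calls was lost when Maf-KO gut replicate 3 was left out (adjusted p 0.108 for Txnrd1, 0.0894 for Srxn1, 0.0582 for Keap1, 0.0526 for Gclm and 0.223 for Nfe2l2). Leaving out Maf-KO gut replicate 2 ended those of Srxn1 (0.0835), Keap1 (0.106) and Gclm (0.156), and leaving out Maf-KO spleen replicate 2 or 3 ended those of Srxn1 (0.0758 and 0.0589) and Gclm (0.064 and 0.0682). In WT the oxidative stress gene Srxn1 was higher by 2.09 (SE 0.456), while Keap1, the Nrf2 inhibitor, and Gclm, a subunit of glutathione synthesis, changed by -0.68 (SE 0.145) and -0.67 (SE 0.151). Nfe2l2, encoding Nrf2 and itself a reported Ahr target, had 63 and 82.1 CPM in WT gut and 36.8 and 48.3 CPM in Maf-KO gut. That log2 difference of -0.77 (SE 0.175) did not pass in edgeR (adjusted p = 0.209) and passed in DESeq2 (adjusted p = 0.0272). Of 9 mono-ADP-ribosyltransferases other than Tiparp, 1 was higher and 3 lower in WT gut, led by Parp11 (log2 -1.65, SE 0.279 in WT, -1.81, SE 0.278 in Maf-KO), the 1 WT call of the list kept under all alternatives. Parp6 (log2 0.50) did not pass without WT gut replicate 3 (0.32, adjusted p = 0.123) or without TMM factors (0.23, adjusted p = 0.169), nor Parp8 (-0.78) without WT gut replicate 1 (-0.65, adjusted p = 0.0943). Parp14 (-0.89) did not pass without WT gut replicate 1 (-0.53, adjusted p = 0.217), WT spleen replicate 2 (-0.82, adjusted p = 0.0823) or WT spleen replicate 3 (-0.74, adjusted p = 0.0828). Of 10 co-regulators only the retinoblastoma gene Rb1 was called, higher by 0.87 (SE 0.196) in WT. In the list of other battery genes, 0 of 5 were called in WT and 1 lower in Maf-KO, which was Nfe2l2 (log2 -0.56, SE 0.162), a call lost without Maf-KO gut replicate 3 (-0.38, adjusted p = 0.223), Maf-KO spleen replicate 2 (-0.50, adjusted p = 0.0791) or Maf-KO spleen replicate 3 (-0.55, adjusted p = 0.0617).

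**Figure D4:**
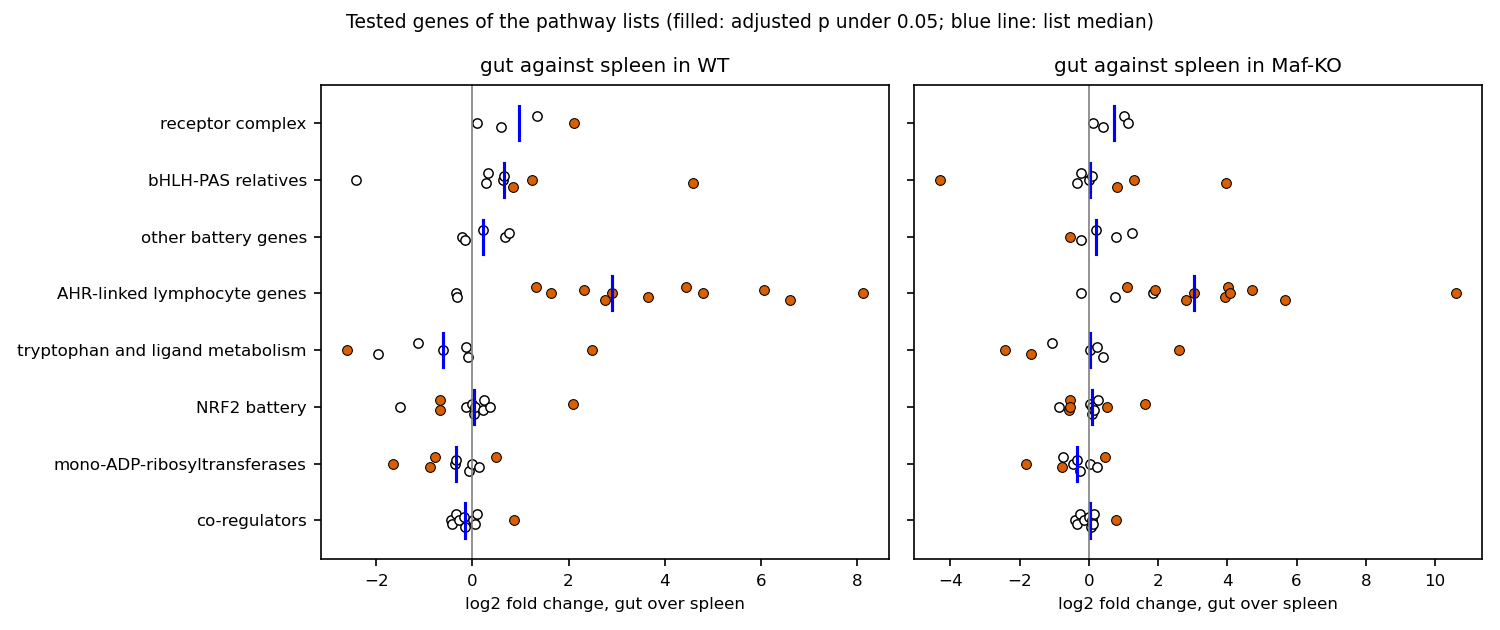
edgeR log2 fold changes of gut over spleen (horizontal axes, of different range) for the tested genes of 8 lists in WT and Maf-KO, filled where the adjusted p was under 0.05, with blue lines at list medians. The lymphocyte list lies farthest right (medians 2.9 and 3.04), and its point beyond 10 in Maf-KO is Il22, whose spleen libraries held 0 counts, so that its position depends on the prior count.

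Arnt2, a paralogue of Arnt that can also pair with bHLH-PAS proteins (chromosome 7, 84246274 to 84411741), differed from Arnt between genotypes. It had 85 and 52 counts in WT gut, 43, 62 and 130 in WT spleen, and 0 in all 5 Maf-KO libraries. Against 3 counts over the group, its level was at least 66.8-fold lower in Maf-KO gut and at least 64.3-fold lower in Maf-KO spleen. In edgeR the differences did not pass (adjusted p = 0.0771 in gut and 0.205 in spleen), except in gut without WT spleen replicate 3 (0.0336) and in both tissues without the filter (5.36e-04 and 3.94e-04). They passed in DESeq2 (1.02e-05 and 3.14e-07) and in limma on the deposited log2 values (0.00699 and 0.0027), and did not in limma-voom (0.08 and 0.341). In a search made after these counts were seen, Arnt2 was the 1 gene of 27179 with 0 counts in every Maf-KO library and 10 or more in every WT library, and 0 genes showed the opposite. Its nearest tested neighbours, Tlnrd1, Mesd, Abhd17c, Fah, Zfand6 and 2610206C17Rik, were not called in either tissue. An antisense gene, Gm30873, overlaps Arnt2 in the annotation, so its reads cannot be told apart without strand.

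**Figure D5:**
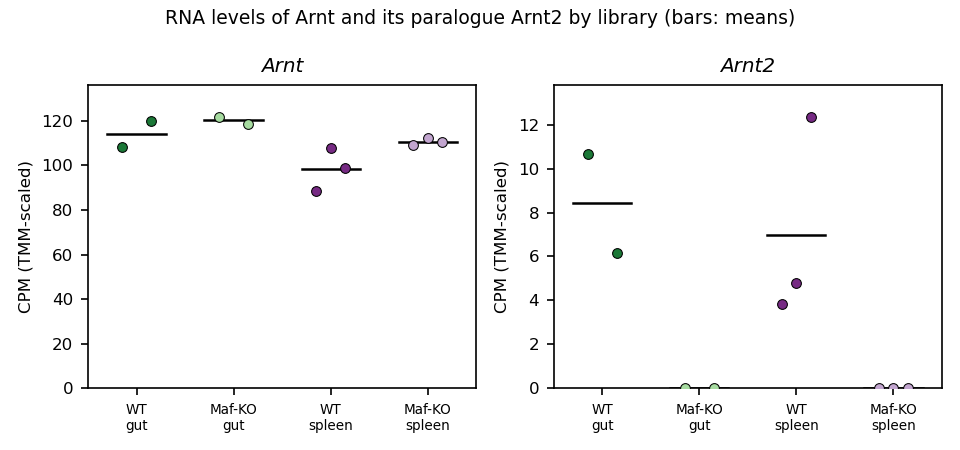
Levels of Arnt and Arnt2 in every library (TMM-scaled CPM, axes from 0), with points for libraries and bars for group means. Arnt lies between 88.5 and 122 CPM throughout, whereas Arnt2 is at 3.83 to 12.3 CPM in the WT libraries and at 0 in all 5 Maf-KO libraries.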

How the data were processed

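RNA of sorted Treg cells was sequenced in 10 libraries of 4 groups, taken from the sample labels. The authors deposited raw read counts per Entrez gene for 27179 genes, not normalised, and log2 FPKM values of 12252 genes per library, as the table and files show. The submitters' processing notes name Subread, featureCounts, limma and the builds GRCm38 and mm10. Tool versions, the annotation and the use of strand were not given in the sources used here. All 852 entries without a symbol stayed in the totals and tests.

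The tests were run with edgeR 4.0.16 in R 4.3.3 (filterByExpr with a minimum count of 10 and minimum total of 15, TMM factors 0.887 to 1.12, quasi-likelihood F tests, two-sided). One fit over all 10 libraries had a coefficient per group, and p-values were Benjamini-Hochberg adjusted over the 13214 genes tested. Genes were called at an adjusted p under 0.05. Levels are CPM with TMM-scaled totals. The edgeR fit was checked on simulated counts. Between genotypes it recovered 51% (gut) and 53% (spleen) of 100 seeded log2 differences of 1, and 83% and 97% of 100 seeded differences of 2. False calls numbered 6 in gut and 19 in spleen, the latter a larger share of calls than the threshold of 0.05 is meant to allow. Seeds lay only in genes with more counts on average than Cyp1a1 or Nqo1, and unseeded genes had the same mean in all groups. The shares recovered therefore do not cover genes as scarce as Cyp1a1, Nqo1 or Ahrr in spleen. DESeq2 1.42.0 and limma 3.58.1, other scalings, no filter, blocks and left-out libraries were alternatives.

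All members, Maf and, of each pathway list and comparison, up to 4 called genes by adjusted p (or up to 2 by unadjusted p where none was called) are candidates for naming, with the 5 genes most correlated with Ahr and with Ahrr. Arnt2 was named by that rule, and the search for its pattern of counts over all genes was added after its values were seen. Members and lists were chosen with earlier results of these data known.

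Each of 4 title numbers is shared by a gut and a spleen library. Their deviations from the group means correlated at 0.313, 0.255, 0.382 and 0.36, so these numbers were taken to pair the libraries, from the data and the shared number alone, since the labels do not say that a number is an animal. Each gut group held 2 libraries, whose deviations from their mean mirror each other, so the 4 correlations are not independent. Gene positions and promoters came from RefSeq tables of GRCm38, which held 25275 of the 27179 identifiers. Counting intervals and floors of 3 counts cover counting error only.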

Additional observations from a re-analysis of the deposited data

How the results depend on the processing

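Ahr, Ahrr and Tiparp stayed called as higher in gut, in either genotype, under all 18 alternatives of each comparison. No member was called between genotypes or in the interaction under any alternative run. Comparing groups alone was not run for the interaction. With the title number as a replicate block, Arnt in WT was called (0.29, adjusted p = 0.0356), and the block changed no other call of a member. Spleen replicate numbers shared by the 2 genotypes did not deviate together (-0.0394, -0.183, -0.347), and as a replicate block they left 0 genes called between genotypes (217 at an unadjusted p under 0.05).

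Of 30 member differences, 14 kept their sign throughout. Reversals were all of differences that did not pass. For Ahrr between genotypes in gut, limma-voom gave -0.0091, the deposited log2 values -0.022 and a random block -0.060. Gut against spleen, Arnt was -0.026 in WT and -0.13 in Maf-KO on the deposited log2 values, and -0.054 and -0.14 without TMM factors, a setting added after seeing the data. Nqo1 was -0.094 in WT on the log2 values, and -0.0089 in WT and -0.093 in Maf-KO without TMM factors. Cyp1a1 in Maf-KO was -0.27 (limma-voom) and -0.45 (log2 values). The Nqo1 interaction was 0.19 (limma-voom), 0.18 (log2 values) and 0.13 (block). The cause was not tested.

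Leaving out single libraries, the genotype difference in gut ranged from -0.18 to 0.070 for Ahr, -0.50 to 0.50 for Ahrr, -0.43 to 0.095 for Tiparp, -2.20 to 0.75 for Cyp1a1 and -0.039 to 1.36 for Nqo1. In spleen it ranged from -0.15 to 0.13 for Tiparp and -0.074 to 0.27 for Cyp1a1. The tissue difference ranged in WT from -0.35 to 1.03 for Cyp1a1 and -0.61 to 0.79 for Nqo1, and in Maf-KO from -1.75 to 1.18 and -0.21 to 0.41. The interaction ranged from -0.38 to 0.14 for Tiparp, -2.26 to 0.70 for Cyp1a1 and -0.62 to 0.77 for Nqo1.

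Between genotypes in gut, 20 genes were called by edgeR, 74 without the filter, 112 by DESeq2, 33 by limma-voom, 13 with the gut groups alone, 42 with a random block and 3 to 22 without single libraries. In spleen the 2 became 12 without the filter, 18 by DESeq2, 5 on the log2 values, 1 with the spleen groups alone, 0 by limma-voom (320 at an unadjusted p under 0.05), 0 with a random block (307) and 2 to 9 without single libraries. Without single libraries 2216 to 3593 genes were called between tissues in WT and 2157 to 3789 in Maf-KO. DESeq2 called 8 genes in the interaction. Cyp1a1 and Nqo1 had 3 to 22 counts per library, and the 2 Maf-KO gut libraries gave 22 and 3 for Cyp1a1.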
